A study of Mus musculus with 24 samples.

Results

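Acetaminophen (APAP) harms the liver after it has been oxidised, and the enzymes that do this in mouse liver are the subject here, 7 genes chosen by symbol out of the 24411 genes in the count files. They are Cyp2e1, Cyp1a2, Cyp3a11, Cyp3a13, Cyp3a25 and Cyp2a5, which encode cytochrome P450 enzymes, and Por, which encodes the P450 reductase. All 7 were found in all 24 libraries and all passed the filter on low counts in every comparison.

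As background, a P450 enzyme binds its substrate beside a heme group and draws electrons for each reaction from the reductase POR, which serves all of the P450 enzymes of the endoplasmic reticulum. CYP2E1 and CYP1A2 are the forms best known for turning APAP into the reactive quinone imine NAPQI, with CYP3A and CYP2A forms as further contributors. NAPQI is captured by glutathione, and when that runs out it binds to proteins. CYP2E1 and CYP1A2 are concentrated in hepatocytes around the central vein, where APAP kills cells first.

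Bulk polyA RNA was sequenced from livers of male mice aged 2.5 months that had been fasted for about 16 h. One cohort held mice with a liver-specific deletion of E2f7 and E2f8 (LKO, n = 4 at 0 h), made with floxed alleles of both genes, the mTmG reporter and an Alb-Cre transgene, and control littermates without Cre (n = 4 at 0 h) on a mixed, mainly FVB background. The Alb promoter is active from fetal life in the hepatoblast lineage, which also gives rise to bile duct cells. The second cohort held floxed mice given AAV8-TBG-Cre at 2 months, which deletes both genes in adult hepatocytes (HKO, n = 3), and floxed mice given AAV8-TBG-Null (n = 3). All mice at 0 h were fasted without APAP. After 300 mg/kg APAP, the LKO cohort was sampled at 12, 24, 48, 72 and 96 h, with 1 library per genotype and time made from RNA pooled from 3 mice. The spread between mice at those times was therefore not measured, and each pool counts as 1 sample. The hour of the day at which livers were taken and the access to food after APAP are not given in the sources used here.

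The libraries held 12665686 to 19499897 reads on genes. Values below are CPM, counts relative to the TMM-scaled library size, except where stated. The hepatocyte markers were high everywhere, with Alb alone at group means of 38300 to 98000 CPM. The deletion itself could not be checked, because the deposited counts cover whole genes and not the deleted exons. E2f7 had at most 66 counts in any library. For E2f8 alone, CPM are relative to the reads on genes, without TMM scaling. E2f8 was at 10.8 to 18.1 CPM in control and 17.2 to 35.4 CPM in LKO mice at 0 h. It was at 14.3 to 25.2 CPM in AAV8-TBG-Null and 30.9 to 84.3 CPM in HKO mice.

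The 7 genes lie at separate places on 3 chromosomes (GRCm38, GENCODE annotation). Cyp2e1 is at chr7:140763739-140774987 on the plus strand and Cyp2a5 at chr7:26835305-26843548 on the plus strand. Cyp1a2 is at chr9:57676937-57683703 on the minus strand. On chromosome 5, Cyp3a11 (chr5:145854426-145879964), Cyp3a25 (chr5:145977194-146009618) and Cyp3a13 (chr5:137892932-137921619) are on the minus strand and Por (chr5:135670033-135735326) is on the plus strand. None overlaps another protein-coding gene, but a pseudogene and a long noncoding RNA gene overlap Por on the other strand and a pseudogene lies within Cyp3a13, and reads were counted without strand, so reads from such stretches cannot be told apart. Near-identical relatives matter more for 2 of the genes. Of the 100-base words in the transcripts of Cyp2a5, 12.1% also occur in another gene, mostly Cyp2a4, and for Cyp3a25 the share was 6.79%, mostly Cyp3a59. For the other 5 genes it was at most 1.99%. For words of 50 bases the shares were 37.0% for Cyp2a5, 26.8% for Cyp3a25 and at most 6.73%, in Cyp3a11, for the others. Reads from shared stretches may be missing or assigned to either gene, so the levels of Cyp2a5 and Cyp3a25 are less certain than those of the rest.

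The sequence just upstream of the start site of each gene is printed to show where the genes resemble or differ from each other there. The 70 bases before each RefSeq start (GRCm38.p6) are given 5′ to 3′ on the strand of the gene, with TATAAA, the core of a TATA box, and GGGCGG, a GC box, in capitals on either strand. Every symbol matched an entry, and for Cyp3a25, which has 2, the first is shown. The GENCODE gene starts at the same base for Cyp3a13 and Cyp3a25 and 34 to 110 bases further upstream for the other P450 genes. For Por it starts 19112 bases further upstream, so the Por window is that of a start inside the GENCODE gene, and which start the liver uses was not measured.
Cyp2e1: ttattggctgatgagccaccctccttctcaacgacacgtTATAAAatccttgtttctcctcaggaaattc
Cyp1a2: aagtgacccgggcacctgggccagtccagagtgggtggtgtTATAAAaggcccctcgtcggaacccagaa
Cyp2a5: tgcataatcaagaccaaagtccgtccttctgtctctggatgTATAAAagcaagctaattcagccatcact
Cyp3a11: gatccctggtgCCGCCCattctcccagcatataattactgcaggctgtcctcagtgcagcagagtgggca
Cyp3a25: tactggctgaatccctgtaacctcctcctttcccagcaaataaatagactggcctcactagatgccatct
Cyp3a13: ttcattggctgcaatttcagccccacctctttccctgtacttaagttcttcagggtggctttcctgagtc
Por: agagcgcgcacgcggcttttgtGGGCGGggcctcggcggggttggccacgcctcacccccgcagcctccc

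The windows run over chr7:140763749-140763818 for Cyp2e1, chr9:57683656-57683725 for Cyp1a2, chr7:26835269-26835338 for Cyp2a5, chr5:145879855-145879924 for Cyp3a11, chr5:146009619-146009688 for Cyp3a25, chr5:137921620-137921689 for Cyp3a13 and chr5:135689075-135689144 for Por. TATAAA was found in Cyp2e1, Cyp1a2 and Cyp2a5, beginning 29 to 31 bases before the start, against 4.38% of all 32851 promoter windows of this length. GGGCGG was found in Por and Cyp3a11, against 20.6% of windows. This window of Por was 77.1% G and C, and those of the P450 genes 41.4 to 60% (median of all windows 55.7%). TTTNNCGC, a core of the E2F site, was in none of the 7 full promoter windows of 300 bases, against 5.17% of all promoters, and GCGTG, the core of the site of the aryl hydrocarbon receptor, was only in Por, against 32.4%. These are matches of letters in short windows and say nothing of binding.

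In untreated livers, Cyp2e1 was the most abundant of the 7 transcripts per length of exon. In control mice of the LKO cohort it stood at 3870 ± 549 CPM per kb (SD, n = 4), with Cyp3a11 next at 1117 ± 379. Then came Cyp1a2 at 457 ± 51.7, Cyp3a25 at 386 ± 67.1 and Cyp2a5 at 377 ± 271 CPM per kb, and these 3 neighbours did not differ beyond their spread. Por stood at 180 ± 43.1 and Cyp3a13, the lowest, at 81.2 ± 20.5 CPM per kb. The first and second places and the last were the same in all 4 groups at 0 h, and Cyp1a2, Cyp3a25, Cyp2a5 and Por changed places between them.

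Within the LKO cohort, untreated mice of 1 genotype differed most in Cyp2a5. The 4 control mice of the LKO cohort had 707.7, 451.8, 367 and 1596 CPM of Cyp2a5, a coefficient of variation of 72.1%, with 1 mouse far above the other 3. For Cyp1a2, at 871.7, 912.5, 827.8 and 1067 CPM, it was 11.3%. For Cyp3a11 it was 33.9% and for the other 4 genes 14.2 to 25.2%. The order was not the same in the AAV8 cohort, where Cyp2a5 varied by 21.6% between AAV8-TBG-Null mice, less than Cyp3a11 at 27.5%, and by 3.77% between HKO mice, the least of the 7.

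**Figure D1:**
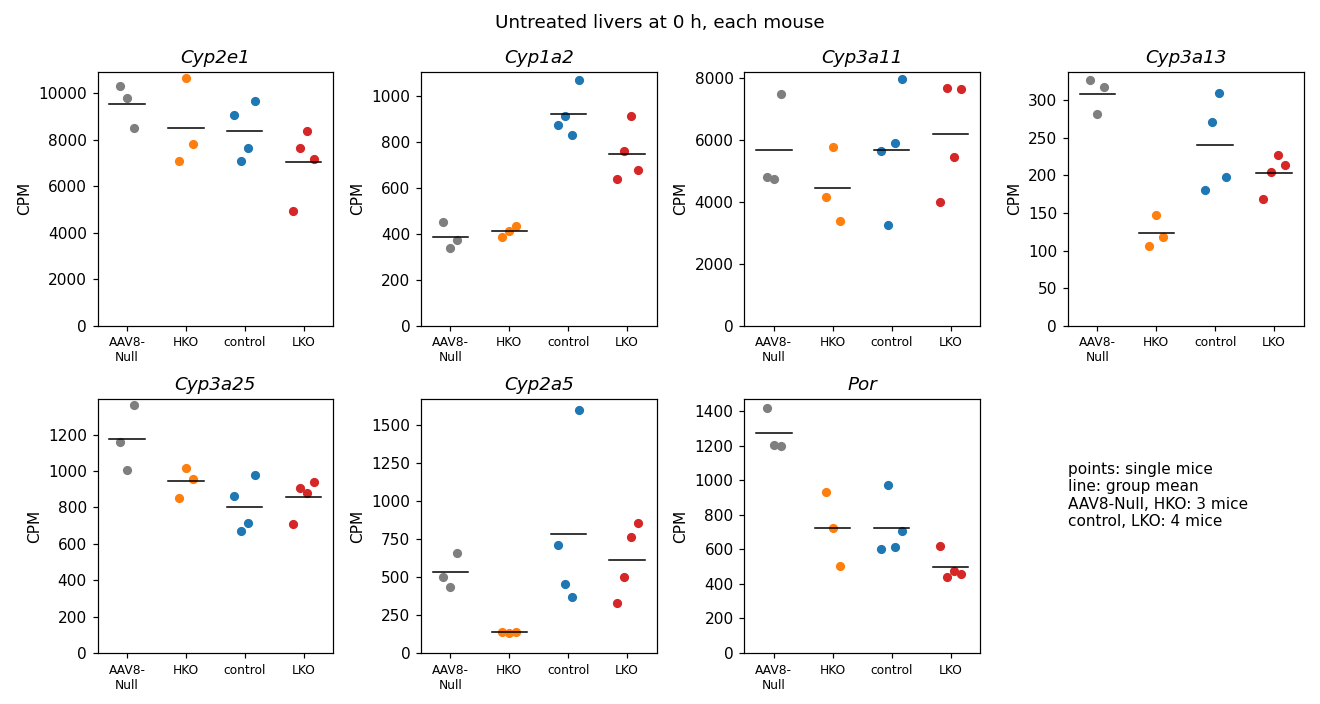
Level of each gene (CPM, linear axis from 0) in every mouse at 0 h; each point is a mouse and each line a group mean, with 3 AAV8-TBG-Null, 3 HKO, 4 control and 4 LKO mice. Cyp2a5 and Cyp3a13 lie lower in all 3 HKO mice than in all 3 AAV8-TBG-Null mice, and Cyp1a2 is lower in both groups of the AAV8 cohort than in both groups of the LKO cohort.

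Whether the liver-lineage knockout alters this machinery before any drug was asked by comparing LKO with control mice at 0 h. None of the 7 genes passed the test, which required an adjusted p under 0.05 and a change of at least 1.5-fold (edgeR quasi-likelihood, Benjamini-Hochberg over all genes). The background was 0% of 12426 genes called, with 352 genes at an unadjusted p under 0.05 and 3 called by DESeq2. Cyp2e1, the main APAP oxidase, was at 9036, 7091, 7642 and 9634 CPM in control and 4929, 7619, 8344 and 7173 CPM in LKO mice. These ranges overlap, and the log2 fold change was -0.25 (SE 0.19; edgeR adjusted p = 0.999), with an interval of 2 SE on each side from -0.63 to 0.13. For Cyp1a2 the LKO mice had 640, 758.1, 911.4 and 677.8 CPM against the control values above, a log2 fold change of -0.30 (SE 0.15), and this range overlaps too.

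Por had the smallest unadjusted p of the 7. Control mice had 602.8, 975, 614.5 and 705.8 CPM and LKO mice 619.7, 439.3, 475.8 and 460.1 CPM. Of the LKO mice, 3 were below every control mouse and the other was within the control range. The log2 fold change was -0.54 (SE 0.19), and the adjusted p of the edgeR test was 0.999, so it did not pass. Log2 fold changes of the 3 Cyp3a genes were between -0.23 and 0.13, and that of Cyp2a5 was -0.35 (SE 0.45). In this comparison none of the 38 other tested genes of the CYP1 to CYP3 families was called.

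In the adult hepatocyte knockout, by contrast with its own controls, 2 of the 7 genes were lower, Cyp2a5 and Cyp3a13. The background was 0.54% of 12397 genes called lower and 0.419% higher, 0.96% in all. Cyp2a5, a coumarin hydroxylase, had 500.1, 435.5 and 658.2 CPM in AAV8-TBG-Null mice and 140.9, 131.6 and 140.2 CPM in HKO mice. The groups are far apart and the HKO mice nearly equal. The log2 fold change was -1.93 (SE 0.15), a 3.82-fold fall, with an edgeR adjusted p of 0.000676. Cyp3a13, a minor CYP3A form that is also made in the intestine, had 326.5, 281.4 and 316.8 CPM in AAV8-TBG-Null and 106.6, 146.8 and 117.6 CPM in HKO mice. Its log2 fold change was -1.30 (SE 0.13), a 2.47-fold fall, with an edgeR adjusted p of 0.00205.

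Por was the only other of the 7 genes that did not overlap between these groups, where 16.9% of 14501 genes did not, at 1421, 1206 and 1198 CPM in AAV8-TBG-Null and 935.2, 725.1 and 504.1 CPM in HKO mice. Its log2 fold change was -0.81 (SE 0.20) with an edgeR adjusted p of 0.108, so it was not called. It was called by DESeq2 (adjusted p = 0.00192), with no filter beyond 1 count (edgeR adjusted p = 0.0323) and without 1 HKO mouse, replicate 1 (edgeR adjusted p = 0.0135). The enzymes most tied to APAP were not called here. Cyp2e1 was at 10290, 9786 and 8507 CPM in AAV8-TBG-Null and 7067, 10620 and 7807 CPM in HKO mice, with a log2 fold change of -0.15 (SE 0.17), and the ranges overlap. Cyp1a2 had a log2 fold change of 0.10 (SE 0.12), Cyp3a11 of -0.34 (SE 0.23) and Cyp3a25 of -0.30 (SE 0.13).

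Other genes give this fall its setting. None of the 33 other tested CYP1 to CYP3 genes was called between HKO and AAV8-TBG-Null mice (median log2 fold change -0.19, against 0.01 over all genes). None of the 10 genes that supply heme or electrons to P450 enzymes and none of the 15 tested regulators was called. Of 13 circadian clock genes, however, 6 were called, 1 higher and 5 lower, among them Arntl, a core activator (log2 fold change 2.24), and Per3, a repressor (-2.40). The summed level of the clock genes was 1010 to 1120 CPM in AAV8-TBG-Null and 510 to 726 CPM in HKO mice. Its part in the lower Cyp2a5, Cyp3a13 and Por was not tested.

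**Figure D2:**
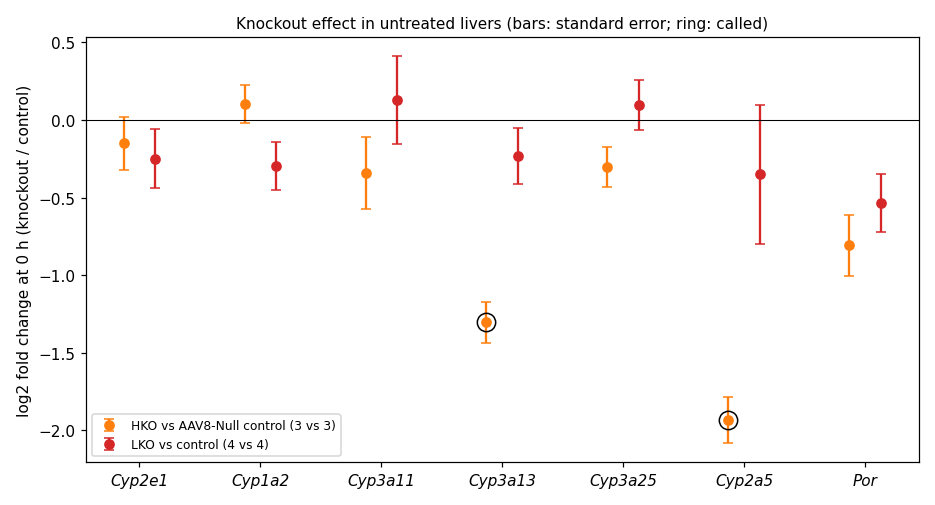
Log2 fold change of knockout over control in untreated livers, for HKO (3 against 3 mice) and LKO (4 against 4); points are edgeR estimates, bars their standard errors, and rings mark genes called. Only Cyp3a13 (-1.30) and Cyp2a5 (-1.93) in HKO carry a ring, and Por is below 0 in both models without one.

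The difference between the 2 knockout effects was tested directly as an interaction, over all 14 mice at 0 h. No gene passed it (0% of 12945), with 579 genes at an unadjusted p under 0.05 and 19 genes called by DESeq2. For Cyp3a13 the LKO effect was higher than the HKO effect by 1.07 on the log2 scale (SE 0.25; edgeR adjusted p = 0.601), and DESeq2 alone called it (adjusted p = 0.0413). For Cyp2a5 the difference was 1.58 (SE 0.59; edgeR adjusted p = 0.99). The lower Cyp2a5 and Cyp3a13 are thus not shown to be particular to the HKO livers by the edgeR test.

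The levels in the control mice of the 2 cohorts are given side by side. Cyp1a2 averaged 388 ± 57.5 CPM (n = 3) in AAV8-TBG-Null mice and 920 ± 104 CPM (n = 4) in control mice of the LKO cohort, with no overlap. Por lay the other way, at 1275 ± 126 and 725 ± 173 CPM, and Cyp3a25 at 1175 ± 178 and 805 ± 140 CPM, also without overlap. These were 3 of the 7 genes, where 24.6% of 14501 genes did not overlap between the same mice, and no test was made of the cohorts. The virus and the cohort cannot be told apart here, and the summed level of 10 fasting-response genes was 19900 to 22200 CPM in the AAV8-TBG-Null mice and 8600 to 10600 CPM in the others.

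After APAP each of the 6 P450 genes was called lower at 1 or more of the times 12, 24 and 48 h, as were 22.4% of all 13855 genes tested. None of them was called at 72 or 96 h, and Por rose at 12 h. The 7 genes together summed to a median of 17100 CPM in control mice at 0 h and to 11800, 3230, 2270, 7710 and 17400 CPM in the control pools, in order of time. In LKO the median at 0 h was 17500 CPM, and the pools had 8370, 5680, 7850, 12500 and 11700 CPM. The LKO sum was thus lower at 12 and 96 h and higher at 24, 48 and 72 h than in control pools. Cyp2e1 and Cyp3a11, with the highest levels at 0 h, weigh most in the sums of untreated mice. In bulk liver, fewer cells of a type and less RNA per cell cannot be told apart.

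**Figure D3:**
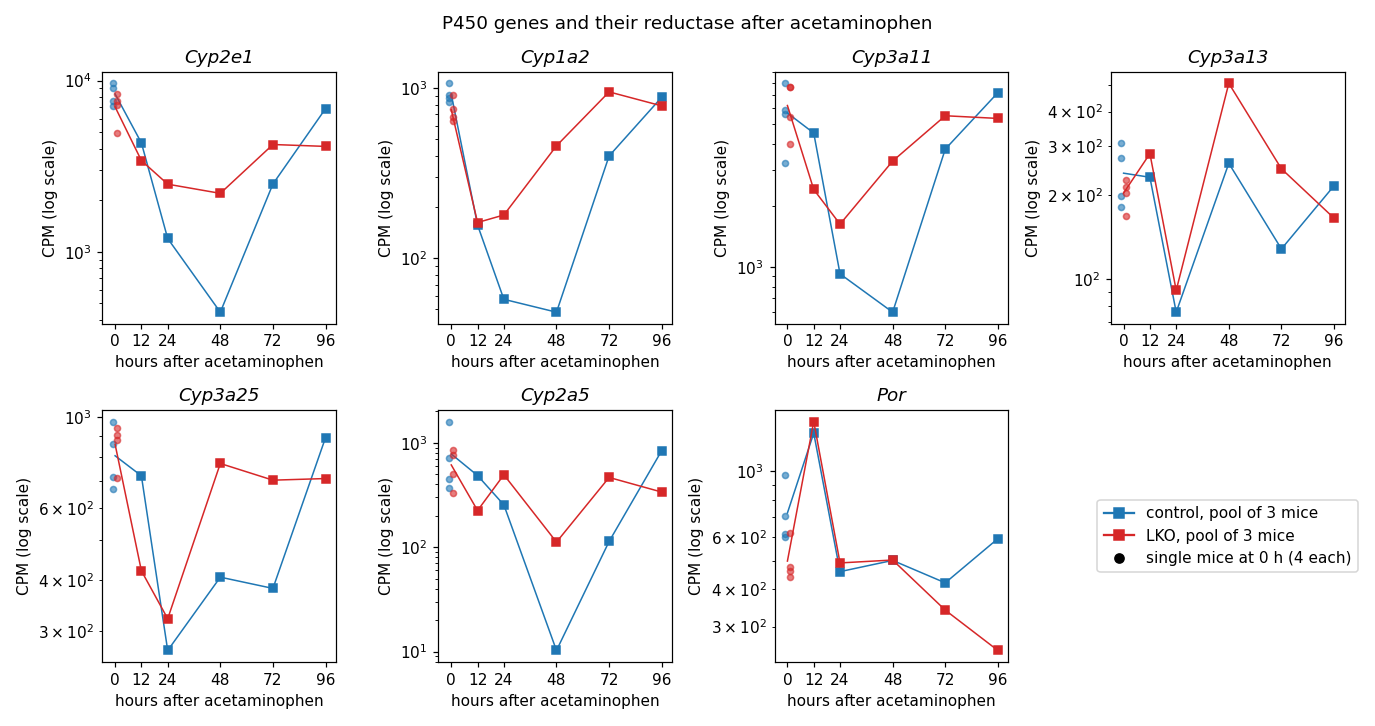
Level (CPM, log axis) of each gene against hours after 300 mg/kg acetaminophen in control and LKO livers; round points are the 4 single mice of each genotype at 0 h, squares are pools of 3 mice, and lines run from the 0 h mean. Control pools reach lower levels than LKO pools at 48 h for all 6 P450 genes, with Cyp2a5 at 10.24 against 111.8 CPM, while Por is nearly equal in the 2 pools at 24 and 48 h.

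Cyp2e1 had its lowest level at 48 h in both genotypes. From a mean of 8351 CPM in control mice, it went to 4323, 1195, 443.5, 2487 and 6852 CPM in the control pools of 12, 24, 48, 72 and 96 h. In LKO, from a mean of 7016 CPM, the pools had 3408, 2481, 2193, 4230 and 4124 CPM. The low point was 5.31% of the 0 h mean in control and 31.3% in LKO, and every pool of either genotype was below all 4 of its untreated mice.

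Cyp1a2, which also clears caffeine and answers to the aryl hydrocarbon receptor, was the first of the P450 genes to be called lower, at 12 h. From a control mean of 919.9 CPM, the control pools had 156.6, 57.32, 48.14, 399 and 883.7 CPM. From an LKO mean of 746.8 CPM, the LKO pools had 162.1, 179.5, 457.8, 950 and 786.1 CPM. At 12 h the pools of both genotypes were alike, and the LKO pool at 72 h was above all 4 untreated LKO mice while the control pool was below all 4 untreated control mice.

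Cyp3a11, the main drug-oxidising CYP3A form of mouse liver and a target of the receptor PXR, was at 4536 CPM in the control pool at 12 h and 923.5, 599.1, 3782 and 7160 CPM at the later times. The LKO pools had 2397, 1620, 3305, 5515 and 5351 CPM. The control pool at 12 h was still within the range of untreated control mice (3248 to 7957 CPM), whereas the LKO pool was below all untreated LKO mice (4008 to 7672 CPM).

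Cyp3a25 and Cyp3a13, further members of the CYP3A family, were lowest at 24 h in both genotypes. Cyp3a25 had 718.9, 269.5, 406.8, 381.9 and 890.9 CPM in the control pools and 421.6, 322.1, 770.5, 701.6 and 708 CPM in the LKO pools. Cyp3a13 had 232, 75.83, 260.5, 128.1 and 216.2 CPM in control and 282.2, 90.9, 505.4, 248.9 and 165.3 CPM in LKO pools. The 48 h LKO pool, at 248% of the 0 h mean, was the highest Cyp3a13 value of the 24 libraries, so this gene was back at or above the untreated level at a time when Cyp2e1 was at its lowest.

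Cyp2a5 had the widest range of the 7 genes in the control pools, though in the LKO pools those of Cyp1a2, Cyp3a13 and Por were wider. The control pools had 485.1, 254, 10.24, 113.3 and 840.2 CPM and the LKO pools 224.3, 493.6, 111.8, 465.2 and 337.1 CPM. The control pool at 48 h was at 1.31% of the mean of untreated control mice and the LKO pool at 18.2% of its own. Without the control mouse at 1596 CPM the control share was 2.01%. Its close relative Cyp2a4 had 0.1009 CPM in the same control pool and 6.29 CPM in the same LKO pool, far below Cyp2a5 in both.

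Set against the mice of its own genotype at 0 h, the control pool had 2, 7, 6, 6 and 2 of the 7 genes below all 4 mice, in order of time, where the background was 33.1%, 30.6%, 30.9%, 32.1% and 26.6% of 14501 genes. It had 1 gene above all 4 mice at 12 h and none later, where the background was 36.1%, 33.8%, 34.1%, 32.9% and 27.5%. The LKO pool had 5, 5, 4, 3 and 4 genes below (background 32.7%, 29.3%, 26.6%, 25.2% and 21.5%) and 2, 0, 1, 2 and 0 above (32.1%, 31.8%, 28.7%, 27% and 21.1%). All 7 genes were thus below their untreated range only in the control pool of 24 h.

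Por went the other way at first. The pools at 12 h had 1347 CPM in control and 1473 CPM in LKO, both above every untreated mouse of the LKO cohort. At 24, 48, 72 and 96 h the control pools had 459.5, 501.3, 421.2 and 593.5 CPM, and the LKO pools 491.6, 502.8, 340.8 and 249.2 CPM. The last of these was 50% of the untreated LKO mean.

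The changes from 0 h were tested with both genotypes in 1 fit, so that 2 pools at each time were set against 8 mice. These comparisons share the same mice at 0 h and are not independent of each other. At 12 h, 1 of the 7 genes was called lower and 1 higher, where the background was 14.3% lower and 16.7% higher (31% together) of 13855 genes. Cyp1a2 fell by 2.41 on the log2 scale (SE 0.58; edgeR adjusted p = 0.00485), and without the LKO pool at 12 h the log2 fold change was -2.20 and the adjusted p 0.0589. Por rose by 1.26 (SE 0.23; edgeR adjusted p = 0.000682), 2.39-fold. Cyp3a25 was not called in this fit, but it was called lower, at -0.59, with the spread of the mice at 0 h alone. Without the control pool at 12 h its log2 fold change was -1.11. Cyp2e1 had a log2 fold change of -0.98 (SE 0.44; edgeR adjusted p = 0.0932) and passed when the spread was taken from the mice at 0 h alone (edgeR adjusted p = 0.00622) or when either pool at 48 h was left out (0.0212 without control and 0.0219 without LKO).

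At 24 h, 5 of the 7 genes were called lower, against 11.7% of all genes, and none higher, against 13.9% (25.6% in either direction). Cyp1a2 fell by 2.96 on the log2 scale (SE 0.61; edgeR adjusted p = 0.00215), Cyp3a11 by 2.26 (SE 0.52) and Cyp2e1 by 2.11 (SE 0.48). Cyp3a25 fell 2.82-fold (SE 0.29 on the log2 scale) and Cyp3a13 by 1.42 (SE 0.30). Cyp2a5 and Por were at -0.94 (SE 0.75) and -0.32 (SE 0.26) and were not called. Without the control pool at 24 h only Cyp3a25 was still called, although the log2 fold changes of the other 4 stayed between -2.39 and -1.34.

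At 48 h, 4 of the 7 were called lower, against 6.52% of all genes, and none higher, against 9.89% (16.4% in either direction). Cyp2a5 fell 12.1-fold, with a log2 fold change of -3.60 (SE 0.92; edgeR adjusted p = 0.0128). On the same scale Cyp2e1 fell by 2.62 (SE 0.50), Cyp1a2 by 1.94 (SE 0.58) and Cyp3a11 by 1.71 (SE 0.51). Cyp3a13 was at 0.76 (SE 0.26) with an edgeR adjusted p of 0.0511, just outside the threshold. It was called higher by DESeq2 (adjusted p = 0.0304), with RLE scaling (edgeR adjusted p = 0.0469), with library size alone (0.00924), with the spread of the mice at 0 h alone (0.0269) and when any of 6 libraries was left out (0.022 to 0.0475): control mouse 2 or 3 at 0 h, the control pool at 48, 72 or 96 h or the LKO pool at 72 h. Without the LKO pool at 48 h its log2 fold change was 0.24. Without the control pool at 48 h, Cyp2e1 was the only one of the 4 still called lower. The log2 fold change was then -2.57 for Cyp2a5, -0.97 for Cyp1a2 and -0.88 for Cyp3a11, so the size of these falls rests on that pool.

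At 72 h none of the 7 was called, where 16.8% of all genes were (11% higher and 5.77% lower). Cyp2e1 was closest, at -1.22 (SE 0.45; edgeR adjusted p = 0.068), and it was called when either pool at 48 h was left out (adjusted p = 0.018 without the control pool and 0.0164 without the LKO pool, edgeR). With the spread of the mice at 0 h alone, Cyp2e1 (-1.24) and Cyp3a25 (-0.68) were called lower at 72 h. At 96 h none of the 7 was called, at a background of 0.462% (0.332% higher and 0.13% lower). The log2 fold changes at 96 h ran from -0.58 (SE 0.26) for Por and -0.47 (SE 0.42) for Cyp2e1 to 0.10 (SE 0.44) for Cyp3a11.

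**Figure D4:**
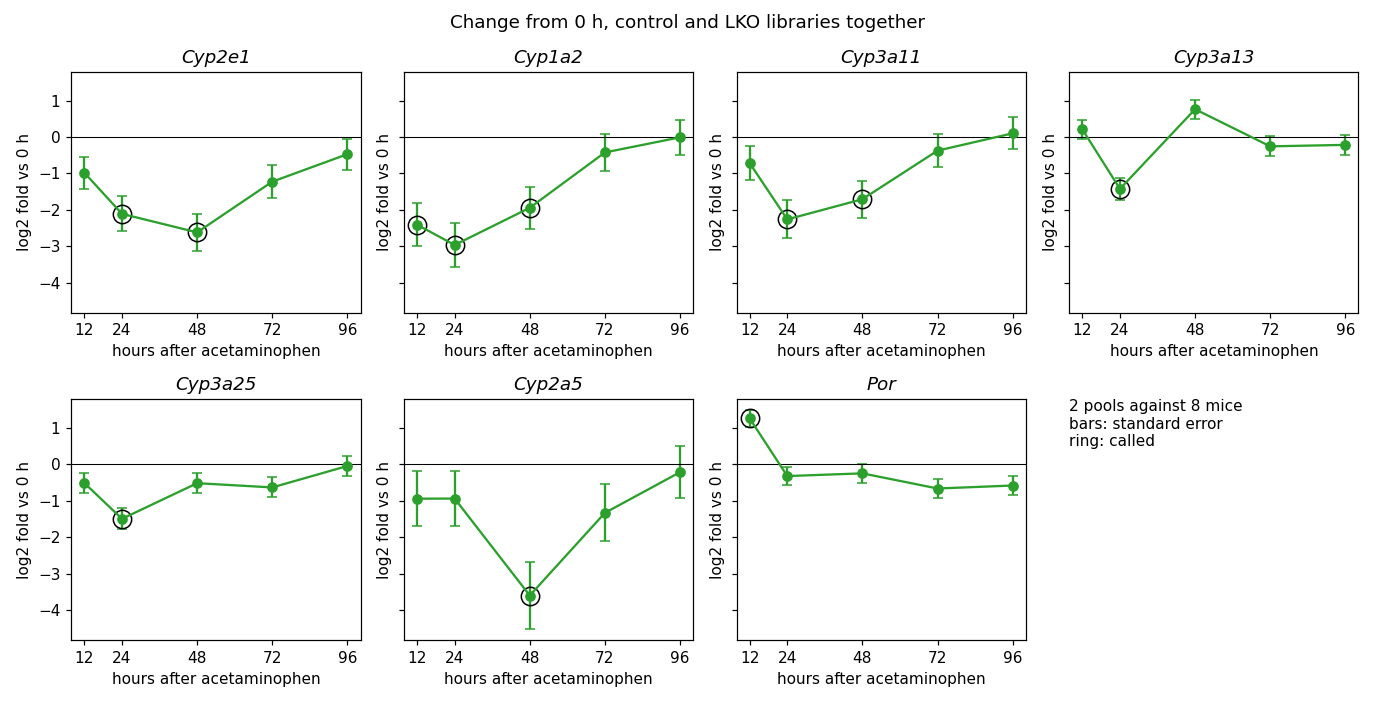
Log2 fold change from 0 h at each time after acetaminophen, with control and LKO libraries in 1 fit (2 pools against 8 mice); points are edgeR estimates, bars standard errors and rings genes called. Rings lie on Cyp1a2 and Por at 12 h, on 5 P450 genes at 24 h and on 4 at 48 h, and none at 72 or 96 h.

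The return was also tested directly, as the 4 pools of 72 and 96 h against the 4 pools of 12 and 24 h. Here 3 of the 7 genes were higher, against 15.8% of all genes, and 1 was lower, against 15% (30.7% together). Cyp1a2 rose by 2.47 on the log2 scale (SE 0.46; edgeR adjusted p = 0.000803), Cyp3a11 by 1.35 (SE 0.40; 0.0152) and Cyp3a25 by 0.67 (SE 0.24; 0.0352), while Por fell by 1.09 (SE 0.23; 0.00171). The call of Cyp3a11 was lost without the control pool at 24 h or 96 h or the LKO pool at 12 h, with log2 fold changes of 1.09 to 1.23, and that of Cyp3a25 without any of these or the LKO pool at 24 h or 72 h, with 0.44 to 0.71. Cyp2e1 was at 0.70 (SE 0.37; edgeR adjusted p = 0.149), and its level at 12 h was 51.8% of the 0 h mean in control and 48.6% in LKO. It was called with the spread of the mice at 0 h alone (edgeR adjusted p = 0.015) and without the control pool at 48 h (0.0482). Cyp3a13 was at 0.37 (SE 0.24) and Cyp2a5 at 0.17 (SE 0.62), neither of them called.

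Between genotypes, the pools were compared at each time. The LKO pool was the higher for 3 of the 7 genes at 12 h, for all 7 at 24 h and 48 h, for 6 at 72 h, with Por the exception, and for 0 at 96 h. At 24, 48 and 72 h, 4, 6 and 5 of the 7 genes were at least 1.5-fold higher in the LKO than in the control pool, where 10%, 17.8% and 15.9% of 14501 genes were. At 48 h the LKO level of Cyp2a5 was 10.9 times that of control, of Cyp1a2 9.51 times, of Cyp3a11 5.52 times and of Cyp2e1 4.94 times, whereas Por was at 1.00 times. At 12 h none of the 7 was 1.5-fold higher, at a background of 19.8%, and 3 were 1.5-fold lower in LKO (Cyp2a5, Cyp3a11 and Cyp3a25), at a background of 24%. At 24, 48 and 72 h none was 1.5-fold lower, where 12.2%, 20.7% and 16.8% of genes were. At 96 h Cyp2a5, Por and Cyp2e1 were past 1.5-fold lower in LKO and none higher, at a background of 13% lower and 15.8% higher. These are single pools with no replicate check.

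Taken over the 5 times with time as a block, none of the 7 passed the test of LKO against control (background 0.579% of 12782 genes, 0.25% higher and 0.329% lower). Cyp1a2 was highest at 1.16 (SE 0.43; edgeR adjusted p = 0.204), higher in LKO at 4 of 5 times. Cyp2e1 was at 0.59 (SE 0.38), Cyp2a5 at 0.76 (SE 0.65), Cyp3a11 at 0.46 (SE 0.41), Cyp3a13 at 0.41 (SE 0.21), Cyp3a25 at 0.18 (SE 0.26) and Por at -0.27 (SE 0.22). The estimates of the P450 genes were smaller without the pools at 48 h, when Cyp1a2 was at 0.69, Cyp2e1 at 0.19, Cyp2a5 at 0.12, Cyp3a13 at 0.28 and Cyp3a11 and Cyp3a25 near 0 (0.0062 and 0.0072). Without the pools at 72 h, Cyp2a5 was at 0.35 and Cyp3a25 at 0.017. Without those at 96 h, Cyp2a5 was at 1.35, Cyp2e1 at 0.94 and Por at -0.02. Leaving out the pools of any 1 time called none of the 7 genes. The change of the LKO effect after APAP, tested as an interaction with 0 h, was called for no gene (0% of 13855), with 1307 genes at an unadjusted p under 0.05 and 36 called by DESeq2. It was 1.47 (SE 0.51; edgeR adjusted p = 0.443) for Cyp1a2 and 0.85 (SE 0.48; 0.59) for Cyp2e1.

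Among the other CYP1 to CYP3 genes, 5 of 35 tested were higher in LKO pools and none lower. They include Cyp2c69 (log2 fold change 5.02, SE 0.42; edgeR adjusted p = 0.00116), Cyp2c40 (4.77) and Cyp2a4 (3.39), of which Cyp2c40 and Cyp2a4 are known as female-predominant forms in mouse liver. Cyp2c40 was at 0.3315, 0.06008, 1.362, 0.5907 and 2.522 CPM in the control pools and 12.65, 8.76, 40.38, 15.32 and 38.08 CPM in the LKO pools. At 0 h the ranges of Cyp2c40 overlapped, at 1.243 to 7.669 CPM in LKO and 2.285 to 8.886 CPM in control mice.

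Part of the wider family was also lower after APAP. Of 41 other tested CYP1 to CYP3 genes, 13 were called lower and 1 higher at 12 h, 16 lower and none higher at 24 h, 12 lower and 1 higher at 48 h, and 8 lower and 2 higher at 72 h, and none at 96 h. Of all genes, 14.3%, 11.7%, 6.52% and 5.77% were called lower at the first 4 times, so at each time most of the family was not called. At 72 h none of the 7 genes was called, but their median log2 fold change was -0.63, against -0.46 in these family genes. The median log2 fold change of the family genes was -0.98 at 24 h, against a median near 0 over all genes. The 3 with the lowest fitted log2 fold changes at 24 h, Cyp2c55, Cyp2d12 and Cyp2g1, were scarce, with 8, 3 and 4 counts in the control pool and 38, 1 and 32 in the LKO pool, and their folds are not given for that reason. At 48 h the largest falls were those of Cyp2c29 (log2 fold change -3.34, SE 0.85), Cyp2c37 (-2.96) and Cyp2c50 (-2.20), with at least 111 counts in every pool. These falls were deeper in control, from means of 2563, 230.2 and 1050 CPM at 0 h to 22.81, 5.601 and 59.14 CPM. In LKO they went from 2273, 183.3 and 796.3 CPM to 599.4, 60.2 and 388.6 CPM. Cyp3a44, another female-predominant form, was called higher at 72 h, with 89 counts (4.183 CPM) in the LKO pool and 1 count (0.06563 CPM) in the control pool. Its rise thus rests on the LKO pool. Untreated mice had 0 to 2 counts in control and 0 to 4 in LKO, so its fold is not given either.

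Genes that mark the zones of the liver lobule were counted beside this loss. Of 10 pericentral genes, 9 were called at 12 h (2 higher and 7 lower), 8 at 24 h (1 and 7) and 8 at 48 h (all lower), where 31%, 25.6% and 16.4% of all genes were called. The glutamate transporter Slc1a2 averaged 122.9 CPM in untreated control mice and was at 2.255 CPM in the control pool at 12 h and 0.2018 CPM at 48 h, and it was still lower at 96 h (log2 fold change -3.79, SE 0.55; edgeR adjusted p = 0.00479). Of 9 tested periportal genes, 3, 5 and 2 were called at 12, 24 and 48 h, and 1, 4 and 1 of them were lower. Of the 10 genes of the hepatocyte list, whose zonation was not examined, 2, 2 and 1 were called, below the share of all genes at each time. The periportal count at 12 h was near that share. In the control pool at 48 h the 7 genes summed to 13.3% of the untreated median and the pericentral genes to 23.1%. Cyp2e1 and Cyp3a11 weigh most in the untreated sum of the 7, with control means of 8351 and 5687 CPM. In that pool Cyp3a13 was at 109%, Por at 69.2% and Cyp3a25 at 50.6% of the 0 h mean. The others were at 1.31% (Cyp2a5) to 10.5% (Cyp3a11). The hepatocyte sum was at 108%, but Alb and Trf made up 72.5% of it, and 7 of its 10 genes were below their 0 h mean, such as Serpinc1 at 1140 against 2300 CPM and F2 at 1280 against 2240 CPM. In the LKO pool at 48 h the pericentral sum was at 27.2%, close to control, while the sum of the 7 genes was at 44.9%. Single genes of the 7 ran from 18.2% (Cyp2a5) to 248% (Cyp3a13) of the LKO mean at 0 h.

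**Figure D5:**
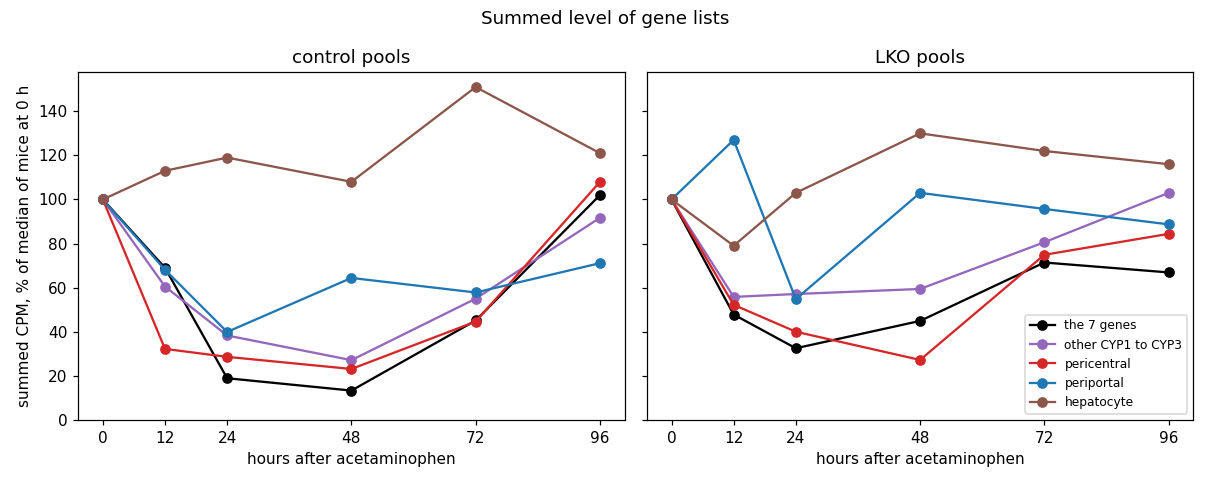
Summed CPM of gene lists at each time after acetaminophen, as a percentage of the median of the 4 untreated mice, for control pools (left) and LKO pools (right). At 48 h the sum of the 7 genes stands at 13.3% in control and 44.9% in LKO, with Cyp2e1 and Cyp3a11 weighing most in untreated mice. The hepatocyte sum, of which Alb and Trf make up 72.5% and 73.7%, stands at 108% and 130%.

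Genes of some other cells were higher at some of these times and those of others lower. Of 8 Kupffer cell and macrophage genes, 4 were called higher at 48 h and again at 72 h, where 9.89% and 11% of all genes were. Their summed level was 128 to 211 CPM in untreated control mice and 225 and 610 CPM in the control pools at 48 and 72 h. That of 6 stellate genes was 82.9 to 136 CPM and then 182 and 751 CPM, with 3 of 6 called higher at 48 h and 5 of 6 at 72 h. Earlier, 3 stellate genes were called lower and none higher at 12 h, and 2 lower and 1 higher at 24 h. Kupffer cell and macrophage genes were split, with 1 lower and 1 higher at 12 h and 3 lower and 3 higher at 24 h. Of all genes, 14.3% and 11.7% were called lower at these times and 16.7% and 13.9% higher. Of 6 endothelial genes, 1 was called higher and 2 lower at 48 h and 2 lower at 72 h. The 6 cholangiocyte genes were at 216 CPM in the control and 86.5 CPM in the LKO pool at 48 h, of which Spp1, which other cells also make, gave 191 and 73.8 CPM. Of the 5 cholangiocyte genes tested, Spp1 and Sox9 were called higher at 48 h and Krt19 lower, and Sox9 alone was called at 12 h, higher. Of 3 neutrophil genes tested, 2 were called higher at 24 h and at 48 h, and the neutrophil sum was 1.11 to 6.46 CPM in untreated control mice and 21.1 CPM in the control pool at 48 h. The hepatocyte sum was 118000 CPM in the control pool at 48 h, but marker sums of different cells do not measure the shares of those cells. The part of the other cells in the fall of the 7 genes was not tested. Of 13 clock genes, 7, 6, 5 and 2 were called at 12, 24, 48 and 72 h, of 10 fasting genes 6, 3, 4 and 4, and of 10 acute-phase genes 4, 2, 3 and 3, all of the last higher, where 31%, 25.6%, 16.4% and 16.8% of all genes were called. The clock count at 72 h, the fasting count at 24 h and the acute-phase count at 24 h were thus near or below the share of all genes. The part of these lists in the fall was not tested.

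Of the P450 partners, Hmox1, which encodes the enzyme that breaks down heme, had the largest change. It rose at 12 h by 4.39 on the log2 scale (SE 0.27; edgeR adjusted p = 3.21e-08), from 17.16 to 25.07 CPM in untreated control mice to 724.2 CPM in the control pool and 209.7 CPM in the LKO pool. Cyb5b, an outer mitochondrial cytochrome b5, fell at 12 h by 1.59 (SE 0.25). Alas1, the first enzyme of heme synthesis, fell at 72 h by 1.84 (SE 0.48; edgeR adjusted p = 0.0131). At 12 h, Alas1 was at 485.2 CPM in the control and 1616 CPM in the LKO pool, on either side of the untreated control range of 884.8 to 1268 CPM.

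Among 15 tested regulators of P450 genes, 3 were called lower at 24, 48 and 72 h each, where 11.7%, 6.52% and 5.77% of all genes were, and none higher at those times. Cebpa, a factor of hepatocyte differentiation, fell at 48 h by 1.38 (SE 0.20; edgeR adjusted p = 0.000225), to 178.4 CPM in the control pool from 510.1 to 678.3 CPM. Nr1i2, which encodes PXR, fell at 24 h by 0.77 (SE 0.22) and Hnf4a, a nuclear receptor of hepatocytes, fell at 72 h by 0.83 (SE 0.24). None of the 15 was called at 96 h or between LKO and control pools.

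The genes whose course was most like that of each member were found as those with the smallest root-mean-square difference, over the 18 libraries of the LKO cohort, in log2 CPM relative to 0 h. This is a description of 14500 genes, and the libraries share 8 mice at 0 h. Cyp2e1 was followed most closely by Pdilt (0.35), Lhpp (0.44), Ugt3a1 (0.45), Cyp2c37 (0.53) and Npr2 (0.55), with Cyp3a11 next (0.56). Cyp1a2 was most like Sult2a8 (0.47), Inmt (0.51), Slco1a1 (0.51), Cyp2c50 (0.57) and Rgn (0.57). Cyp3a11 was most like Cyp2c44 (0.45), Slc17a4 (0.45), Pdilt (0.49), 9130409I23Rik (0.50) and Ces2a (0.50).

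Cyp2a5 had Cyp2e1 itself as its nearest gene (0.79), followed by Cyp2c37, Lhpp, 9130409I23Rik and Ces1e (0.79 to 0.97). Cyp3a13 was most like Cps1 (0.38), a periportal urea cycle gene, with Dclk2, 2210018M11Rik, Asxl2 and Fhit after it (0.43 to 0.45). Cyp3a25 was most like Fam210a (0.27), Gch1, Daam1, Samd8 and C2cd2, and Por most like Ctif (0.28), Ipo4, Rhbdd2, Mlxip and Nrbp2 (up to 0.34). The distance of Por from Cyp2e1 was 1.44 and that of Cyp3a13 from Cyp2e1 was 1.40, so these genes formed no single course with the rest.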

How the data were processed

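The deposited values are raw counts of reads per gene. To make them the authors used Trimmomatic for trimming and STAR, on mm10, for alignment and counting. The column counted without strand was used here, and the gene annotation is not given in the sources used here. Reads were unstranded (50.1% to 50.8% on the first strand). The unnamed classes of reads were left out (unmapped reads were 2.63% to 20.6%). Counts were tested with edgeR 4.0.16 (R 4.3.3) quasi-likelihood fits with TMM scaling after filterByExpr, and p-values were adjusted over all genes by Benjamini-Hochberg. Calls required 1.5-fold or more and an adjusted p below 0.05. SE is the log2 fold change divided by the square root of F. CPM used TMM-scaled library sizes, except for E2f8 and for the floor given below, and log2 CPM a prior count of 2. LKO and control pools were compared with time as a block. The times were compared with genotype as a term over 18 libraries. DESeq2 1.42.0, RLE scaling, library size alone, no filter, a replicate block, the spread of the mice at 0 h alone and leaving out libraries were alternatives. Scripts were tested on simulated data. Relative to the reads on genes without TMM scaling, 3 counts equal 0.154 to 0.237 CPM in these libraries. The 7 genes were far above this floor, and intervals cover only the spread stated.

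The members and lists were chosen with earlier results of these data known. Besides the 7 genes, named genes are, per comparison, drawn from the 3 other CYP1 to CYP3 genes with the largest called increase and decrease and from 1 of each direction in the partner, regulator, pericentral and periportal lists, and the 5 genes most like each member, and clock genes are examples. Exon lengths and shared words came from GENCODE vM21, promoters from RefSeq. Replicates at 0 h were separate mice. Pools of 3 mice carry no measure of spread between mice. Fits that include untreated mice take their error from the spread of those mice within genotype. They also take it from how the difference of LKO and control pools varies between times. The fit of pools alone takes its error from the latter only.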

Additional observations from a re-analysis of the deposited data

Results flagged for a closer look

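At 72 h the 2 genotypes lay on opposite sides of their untreated mice for 2 of the 7 genes. For Cyp1a2 the log2 change from the 0 h mean was -1.20 in the control and 0.36 in the LKO pool, a difference of 1.56. For Cyp3a13 these changes were -0.87 and 0.30, a difference of 1.17. In each case the control pool was below all 4 untreated control mice and the LKO pool above all 4 untreated LKO mice. Of all 14501 genes, 2.19% lay this way round at 72 h and 4.17% on opposite sides either way round. With 1 pool per genotype the difference was not tested. In 14 sets of 4 untreated mice (7 genes in control and in LKO), no mouse stood apart by the 95% criterion of Dixon. The largest gap was that of Por in LKO, at 0.798 of the range.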

How the results depend on the processing

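Counts of called genes, over all genes and among the 7, changed with the settings, and the cause was not tested. LKO against control at 0 h gave 3 genes with DESeq2 (0 to 1 with a mouse left out). HKO against AAV8-TBG-Null gave 119, but 255 without the filter, 324 with DESeq2 and 264 with the replicate block, and 54 (without AAV8-TBG-Null replicate 1) to 297 (without HKO replicate 1) with a mouse left out. The difference of the knockout effects gave 2 without the filter, 19 with DESeq2 and 0 to 3, with 1 of the 7 genes called by DESeq2. LKO against control pools gave 74, but 42 with library size alone, 337 without the filter, 594 with DESeq2, and 9 (without 12 h) to 177 (without 96 h). The change of the LKO effect gave 2 without the filter, 36 with DESeq2 and 0 to 3. At 96 h the 64 genes became 41 with library size alone, 335 with DESeq2, 143 with the spread of the mice at 0 h alone, and 7 (without the LKO pool) to 113.

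With a library left out, genes called ran from 2151 to 4487 at 12 h, 1177 to 3720 at 24 h, 507 to 2507 at 48 h and 514 to 2532 at 72 h. The lowest count came without the control pool of that time, and at 24 h without the LKO pool. Of the 7 genes, 1 to 3, 1 to 5, 2 to 5 and 0 to 1 were then called, and 2 to 5 between late and early pools. Over all genes, 3187 to 4384 were called between late and early pools with a library left out. With the spread of the mice at 0 h alone, 4 of the 7 were called at 12 h and 2 at 72 h. Over all genes that setting called 4541 and 2576, against 4299 and 2327 of 13855 in the main fit.

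The log2 change of Cyp1a2 at 96 h, -0.0073, was 0.0069 with RLE scaling, 0.0068 with DESeq2 and 0.0077 with the spread of the mice at 0 h alone. Signs that turned with a library left out all belong to uncalled values. They were at 0 h Cyp3a11 (-0.070 to 0.33) and Cyp2a5 (-0.58 to 0.27), in the difference of knockouts Cyp2e1 (-0.22 to 0.094), at 72 h Cyp3a13 (-0.78 to 0.16), at 96 h Cyp1a2 (-0.42 to 0.31), Cyp3a11 (-0.37 to 0.46), Cyp3a13 (-0.54 to 0.046), Cyp3a25 (-0.35 to 0.20) and Cyp2a5 (-1.29 to 0.43), between late and early pools Cyp2a5 (-0.51 to 0.62), and in the change of the LKO effect Cyp3a11 (-0.12 to 0.71) and Cyp3a25 (-0.086 to 0.34).

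The replicate block called Por in HKO (edgeR adjusted p = 0.0174) and changed no other call of the 7 genes, but mice with the same number did not deviate together (correlations -0.315 to 0.181), so the numbers do not pair them.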
